A study of Homo sapiens with 12 samples.

Results

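The drug efflux transporters studied here are 7 named genes of the ATP-binding cassette (ABC) family: ABCB1, ABCC1, ABCC2, ABCC3, ABCC4, ABCC5 and ABCG2. They were taken by name from the 19775 genes that had a probe set carrying 1 gene symbol, and 18 such probe sets matched them. A probe set shared by ABCB4 and ABCB1 was left out. Each gene was read from its brightest probe set, the one with the highest mean over all arrays. A gene was tested where 3 or more arrays gave this probe set a log2 value of at least 4, as held for 5 of the 7 genes and for 10784 genes in all.

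The RNA came from HK-2, an immortalized line of human kidney proximal tubule epithelium. Its cultures received Fk or the control vehicle for 12 h or 48 h, with 3 arrays in each of the 4 groups. Per the labels the 3 arrays are biological replicates, and neither the full name of Fk nor a dose is given. All groups, controls included, grew in a medium with 5 mM glucose, epidermal growth factor, hydrocortisone, insulin and transferrin, and were treated near confluence, 24 h after seeding. The study's design text places this treatment in a search for expression patterns of kidney toxicity over 9 compounds, of which Fk is the compound described here. All cultures were of 1 line, so the p-values measure the spread between cultures of that line.

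ABC efflux transporters are membrane proteins that use the energy of ATP to move drugs, conjugates and endogenous anions out of the cell. In the kidney proximal tubule ABCB1, ABCC2, ABCC4 and ABCG2 sit in the apical membrane and pass their substrates to the urine, whereas ABCC1, ABCC3 and ABCC5 are known mostly from the basolateral side of polarized cells. Their substrate ranges overlap, and ABCB1 exports uncharged and cationic drugs while the ABCC proteins favour organic anions and conjugates of glutathione, glucuronate and sulfate. The arrays measured RNA of whole cultures, in which fewer cells with a transcript and less transcript per cell cannot be told apart.

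Among markers of epithelium KRT18 and EPCAM were highest, at 12.60 to 13.48 and 12.43 to 13.50, and CDH1 was lowest, at 5.50 to 8.45. Of these markers 6 of 6 reached a value of 4 on at least 3 arrays. Of 14 proximal tubule markers with a probe set, 1 did so. This was DPP4, a brush border peptidase, at 10.62 to 11.96, whereas CUBN, an endocytic receptor, stayed at 2.08 to 2.12 and AQP1, a water channel, at 2.42 to 2.46. The same level was reached by 3 of 6 markers of later tubule segments, 3 of 7 of fibroblasts, 1 of 5 of endothelium and 0 of 3 of leukocytes. Of these, AQP2 (4.18 to 4.33) and AQP3 (3.08 to 4.82) of later segments and PECAM1 of endothelium (3.37 to 4.59) lay near it. SCNN1A of later segments was at 7.61 to 8.00. The fibroblast markers COL1A1, DCN and LUM were at 7.41 to 8.88, 8.04 to 10.07 and 7.90 to 9.96. Array medians ran from 2.85 to 2.94. The array of Fk at 12 h, replicate 3, stood apart from the others. Its correlation with the arrays of its own group was 0.942 and 0.946, against 0.961 to 0.994 between the other arrays of a group, and 569 tested genes lay more than 1 log2 unit above and 1091 more than 1 below the mean of its group mates. Its values of the 5 tested transporters lay 0.23 to 0.66 below that mean. Differences of their brightest probe sets that use it are therefore also given without it where they move by over 1.5 times, turn or change their call. Genes of the related lists are given with all 12 arrays only.

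ABCB1 encodes P-glycoprotein, the classical multidrug pump. RefSeq windows of the promoter were available for 5 of the 7 genes, on build GRCh38.p14, and the pair for ABCB1 is shown because this gene was lower at 48 h than at 12 h in controls and in Fk cultures. Each window holds the 250 bases before an annotated start on the minus strand of chromosome 7, at chr7:87600885-87601134 for the first and chr7:87713296-87713545 for the second, whose starts lie 112.4 kb apart. Capitals mark matches, on either strand, to the CCAAT box (CCAAT), the GC box (GGGCGG), the TATA box (TATAAA), the core of the xenobiotic response element (GCGTG) or the core of the antioxidant response element (TGACNNNGC).
ABCB1 start 1: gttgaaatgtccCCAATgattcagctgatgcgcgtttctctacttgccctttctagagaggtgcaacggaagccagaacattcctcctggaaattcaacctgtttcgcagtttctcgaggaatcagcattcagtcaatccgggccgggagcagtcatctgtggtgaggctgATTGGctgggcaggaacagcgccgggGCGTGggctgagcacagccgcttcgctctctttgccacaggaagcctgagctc
ABCB1 start 2: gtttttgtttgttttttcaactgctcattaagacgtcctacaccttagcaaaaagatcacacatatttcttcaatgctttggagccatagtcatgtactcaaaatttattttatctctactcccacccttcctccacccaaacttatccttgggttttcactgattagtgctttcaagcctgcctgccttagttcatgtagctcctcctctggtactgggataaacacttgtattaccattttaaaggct
In the first window CCAAT lay 238 to 234 bases before the start and its reverse complement 79 to 75 before it, and GCGTG lay 53 to 49 before it. The second window held none of these motifs, and its GC content was 39.2% against 55.6% in the first. Over all 35116 RefSeq windows of this length, 32% held CCAAT, 42.6% the GC box, 10.7% the TATA box, 32.2% GCGTG and 10.9% TGACNNNGC. The arrays do not tell from which start a transcript came.

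ABCB1 was highest in controls at 12 h and lowest in Fk cultures at 48 h. Its brightest probe set gave 10.01, 9.92 and 9.95 in controls and 9.63, 9.76 and 9.46 with Fk at 12 h. At 48 h it gave 9.34, 9.32 and 9.52 in controls and 8.78, 9.34 and 9.23 with Fk. All Fk arrays lay below all control arrays at 12 h, whereas at 48 h the groups overlapped. The Fk minus control difference at 12 h was −0.35 ± 0.15 (SE, n = 3 against 3, 95% interval −0.68 to −0.01), which passed the unadjusted threshold of 0.05 but not the threshold after adjustment over all genes (limma, adjusted p = 0.739), and it was −0.27 without replicate 3 of that group. At 48 h the difference was −0.28 (−0.61 to 0.06, adjusted p = 1.0), and it was −0.11 without replicate 1 of Fk, the array at 8.78, and −0.087 with arrays weighted by their scatter. The mean of both effects was −0.31 ± 0.11 (−0.55 to −0.08, adjusted p = 0.473), and −0.27 without replicate 3 of Fk at 12 h.

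ABCB1 fell between 12 h and 48 h in both treatments. In controls the mean went from 9.96 ± 0.05 to 9.39 ± 0.11 (SD, n = 3 each), a difference of −0.57 ± 0.15 (SE, −0.90 to −0.23) or 1.48-fold (limma, adjusted p = 0.0254). With Fk it went from 9.61 ± 0.15 to 9.12 ± 0.29 (SD, n = 3 each), a difference of −0.50 ± 0.15 (SE, −0.83 to −0.16) or 1.41-fold (adjusted p = 0.0388). The arrays of the compared times did not overlap in either treatment, as for 50.0% of all genes in controls and 38.7% with Fk. The control call was lost when most single control arrays were left out. Leaving out any control array at 12 h, or control replicate 1 or 2 at 48 h, brought the adjusted p to between 0.0642 and 0.0848. The differences were then −0.59 to −0.53. For Fk, the call was lost without replicate 1 of Fk at 48 h (−0.33, adjusted p = 0.123), replicate 1 (−0.49, 0.0875) or 2 (−0.43, 0.111) of Fk at 12 h, and, with the difference unchanged, any control array at 12 h or control replicate 2 at 48 h. Without replicate 3 of Fk at 12 h the Fk difference over time was −0.57 and passed (adjusted p = 0.0287).

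The other ABCB1 probe set was dimmer and more scattered, with values of 5.93 to 7.67. Its group means were 7.21 ± 0.36 in controls and 6.94 ± 0.36 with Fk at 12 h, and 7.03 ± 0.60 and 6.50 ± 0.50 at 48 h (SD, n = 3 each). All 4 of its differences were negative, as for the brighter probe set, and none passed (limma over probe sets). Fk minus control was −0.28 at 12 h and −0.53 at 48 h, and the time difference was −0.18 in controls (adjusted p = 0.757) and −0.43 with Fk (adjusted p = 0.401).

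ABCC2, ABCC4 and ABCG2 complete the apical set. ABCC2, or MRP2, exports glutathione and glucuronide conjugates, and its single probe set stayed between 2.45 and 2.59 on all 12 arrays. ABCG2, or BCRP, exports urate and sulfated conjugates among others, and its single probe set stayed between 2.17 and 2.22. Both were under the level of 4 on every array in Fk and control cultures alike and were not tested, so a change in either was not detectable here.

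ABCC4, or MRP4, exports cyclic nucleotides and organic anions, and was bright and steady. At 12 h it gave 10.24, 10.26 and 10.24 in controls and 10.09, 10.25 and 9.87 with Fk. At 48 h it gave 10.50, 10.24 and 10.24 in controls and 10.20, 10.27 and 10.24 with Fk. The groups overlapped in every comparison. The Fk difference was −0.18 (−0.45 to 0.09, limma adjusted p = 0.794) at 12 h and −0.09 (−0.36 to 0.18) at 48 h, and the time difference was 0.07 (−0.20 to 0.34) in controls and 0.17 (−0.10 to 0.44, adjusted p = 0.341) with Fk. Without replicate 3 of Fk at 12 h, the array at 9.87, the 12 h Fk difference was −0.082 and the time difference with Fk 0.068. A pair of its other probe sets ran from 7.64 to 8.80 and from 6.79 to 7.80, with differences between −0.22 and 0.38 that did not pass, and the last stayed at 2.44 to 2.50.

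Among the basolateral transporters, ABCC3, or MRP3, which exports glucuronides and bile salts, was highest in the Fk cultures at 48 h. Its brightest probe set gave 8.08, 7.83 and 7.87 in controls and 7.92, 7.97 and 7.28 with Fk at 12 h. At 48 h it gave 8.47, 7.90 and 8.71 in controls and 9.33, 9.60 and 8.65 with Fk. A pair of the 48 h Fk arrays lay above all controls, and replicate 3, at 8.65, lay within their range. Group means were 7.93 ± 0.14 and 7.72 ± 0.38 at 12 h, and 8.36 ± 0.42 and 9.19 ± 0.49 at 48 h, for control and Fk (SD, n = 3 each).

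From 12 h to 48 h ABCC3 rose by 1.47 ± 0.29 (SE, 0.84 to 2.11), or 2.77-fold, in the Fk cultures (limma, adjusted p = 0.00646). The arrays of these times did not overlap, as for 38.7% of all genes. In the controls the time difference was 0.43 ± 0.29 (−0.20 to 1.06, adjusted p = 0.301) and the arrays overlapped. The rise with Fk was 1.25 (adjusted p = 0.0143) without replicate 3 of Fk at 12 h. It passed under the 25 alternatives that could test it, with values of 0.66 to 1.75. Without probe sets named _s_at or _x_at, which take in the brightest 3 of ABCC3, the gene was not tested.

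The Fk effect on ABCC3 at 48 h was 0.83 ± 0.29 (SE, 0.20 to 1.47), or 1.78-fold, and passed the unadjusted but not the adjusted threshold (limma, adjusted p = 0.775). At 12 h it was −0.21 ± 0.29 (−0.84 to 0.43, adjusted p = 0.903), and 0.013 without replicate 3 of Fk at 12 h. The difference between these effects, 48 h minus 12 h, was 1.04 ± 0.40 (0.15 to 1.94, adjusted p = 0.996), and the rise over time in Fk cultures was therefore not shown to differ from that in controls. Weighting each array by its scatter brought the 48 h effect to 1.35 with an adjusted p of 0.0233, and the mean effect from 0.31 (adjusted p = 0.755) to 0.66 (0.0302).

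The next brightest ABCC3 probe set separated the 48 h groups. It gave 7.17, 6.86 and 7.26 in controls and 8.41, 8.40 and 7.69 with Fk at 48 h. At 12 h it gave 7.16, 6.88 and 7.12 in controls and 7.17, 7.17 and 6.53 with Fk. All 48 h Fk arrays lay above every other array. Fk minus control at 48 h was 1.07 ± 0.24 (SE, 0.55 to 1.59), or 2.10-fold. It passed the unadjusted threshold, as did 5.19% of the 21899 probe sets tested, but not the adjusted threshold (limma, adjusted p = 0.414), which 0.00457% passed. The arrays of this comparison did not overlap for 10.4% of the probe sets.

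The time difference of this probe set was 1.21 with Fk (limma, adjusted p = 0.00795) and 0.04 in controls (adjusted p = 0.930), in comparisons that called 19.9% and 17.9% of all probe sets. The times did not overlap with Fk, as for 36.7% of probe sets, and overlapped in controls, where 46.6% did not. The difference between the Fk effects was 1.17 (adjusted p = 0.996). The third ABCC3 probe set by brightness stayed at 4.62 to 5.30, with a 48 h Fk difference of 0.09 and a time difference with Fk of 0.27 (adjusted p = 0.286). The remaining pair stayed at 3.44 to 4.19 and 3.45 to 3.86 and did not reach the level for testing.

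**Figure D1:**
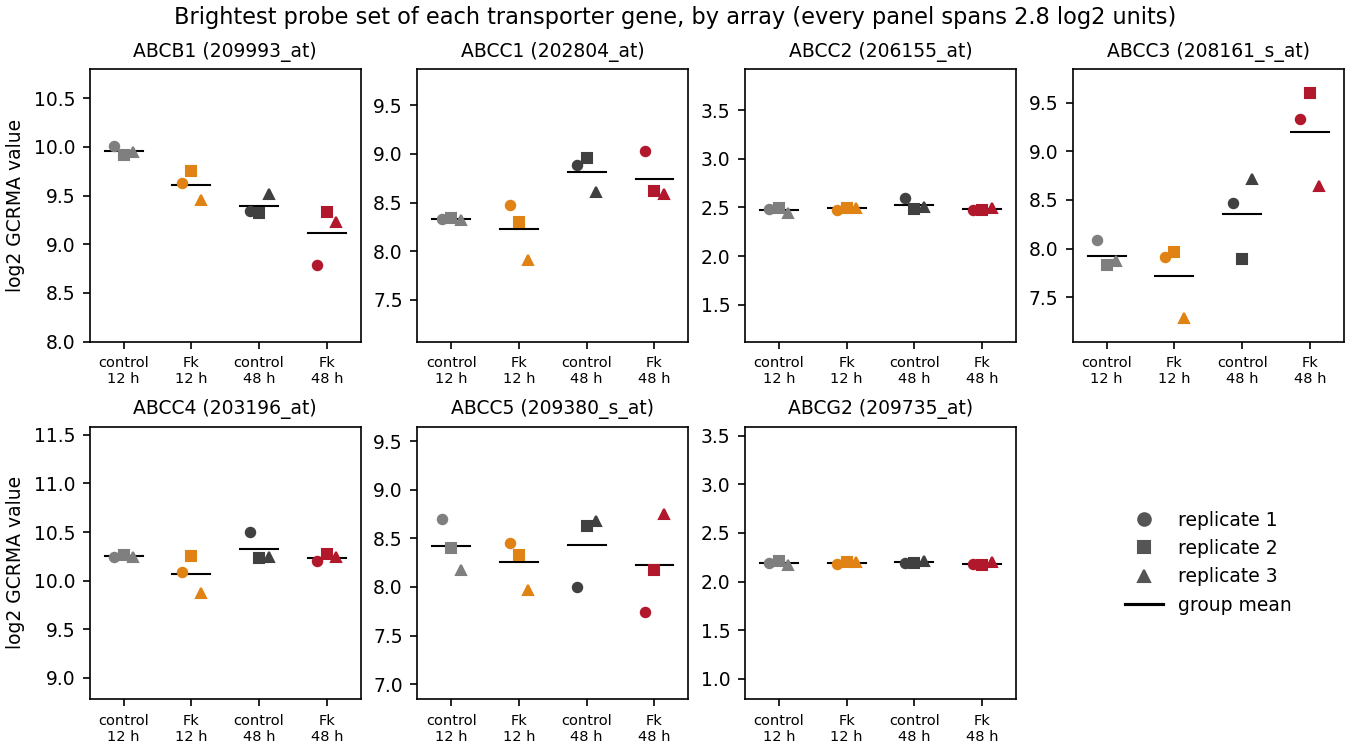
Log2 GCRMA value of the brightest probe set of each of the 7 transporters on each of the 12 arrays, with 3 arrays per group, symbols for replicates and a line at the group mean. ABCB1 steps down from about 9.96 in 12 h controls to 9.12 in 48 h Fk cultures, ABCC3 is highest with Fk at 48 h, and ABCC2 and ABCG2 stay below 4.

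**Figure D2:**
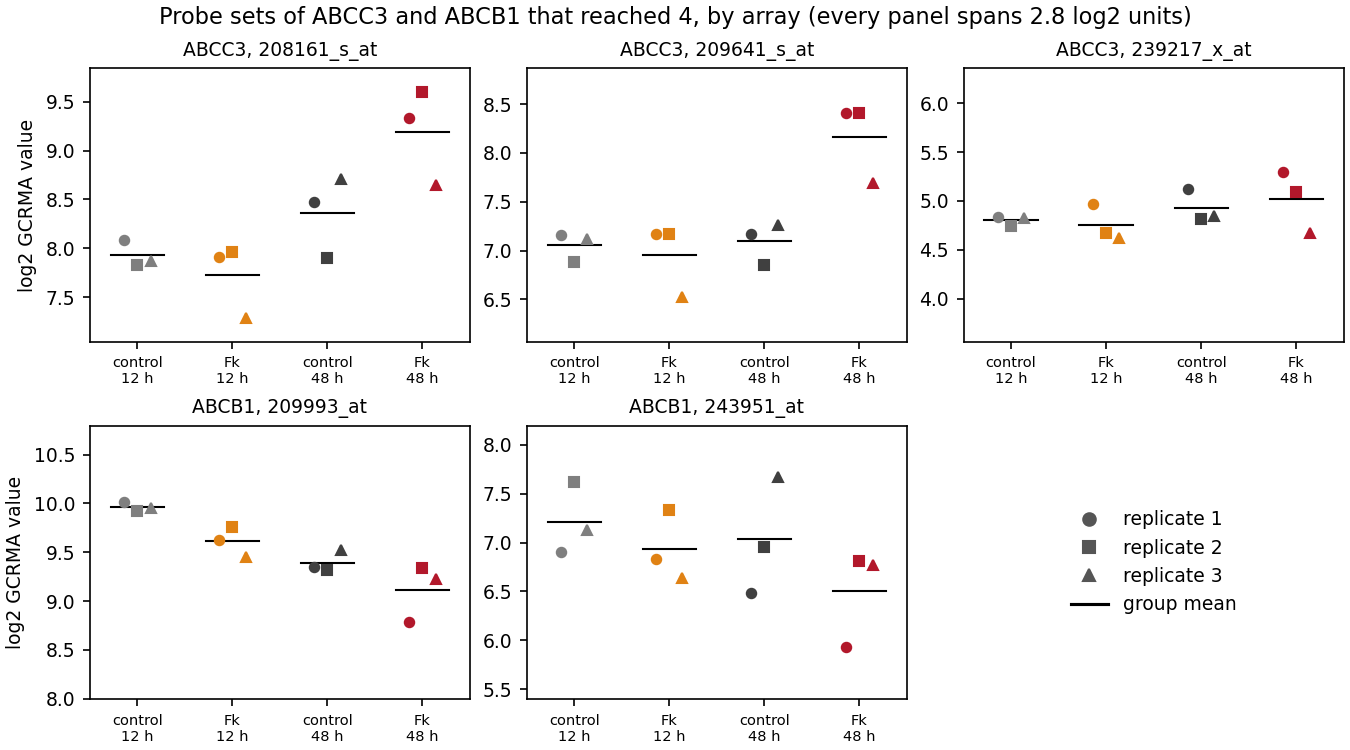
Log2 GCRMA values by array for the ABCC3 and ABCB1 probe sets that reached 4, with symbols for replicates and a line at the group mean. The brighter pair of ABCC3 probe sets is highest in Fk cultures at 48 h, while the third stays at 4.62 to 5.30.

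ABCC1, or MRP1, exports glutathione conjugates and leukotrienes, and was higher at 48 h than at 12 h on every array. It gave 8.33, 8.34 and 8.32 in controls and 8.48, 8.30 and 7.91 with Fk at 12 h. At 48 h it gave 8.89, 8.95 and 8.61 in controls and 9.03, 8.62 and 8.59 with Fk. The times did not overlap in either treatment, as for 50.0% of all genes in controls and 38.7% with Fk, but the tests missed the threshold. The time difference was 0.49 ± 0.17 (SE, 0.10 to 0.87) in controls (limma, adjusted p = 0.0690) and 0.51 ± 0.17 (0.13 to 0.90) with Fk (adjusted p = 0.0550), and both passed the unadjusted threshold.

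The ABCC1 time difference passed in controls without replicate 3 of Fk at 12 h (0.49, adjusted p = 0.0278) or replicate 3 of the controls at 48 h (0.59, 0.0464), and in Fk cultures without replicate 1 of Fk at 12 h (0.64, 0.0425) or replicate 3 of Fk at 48 h (0.59, 0.0497). In Fk cultures the difference was 0.36 (adjusted p = 0.124) without replicate 3 of Fk at 12 h. Fk minus control was −0.10 at 12 h (−0.48 to 0.28) and −0.07 at 48 h (−0.46 to 0.31), and at 12 h it turned to 0.057 without replicate 3 of Fk. A dimmer ABCC1 probe set ran from 5.77 to 7.10 and had time differences of 0.23 in controls and 0.11 with Fk and Fk differences of 0.24 at 12 h and 0.12 at 48 h, none past the threshold.

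ABCC5, or MRP5, exports cyclic nucleotides and nucleotide analogues. It gave 8.70, 8.40 and 8.18 in controls and 8.46, 8.33 and 7.97 with Fk at 12 h. At 48 h it gave 8.00, 8.62 and 8.68 in controls and 7.75, 8.17 and 8.75 with Fk. The groups overlapped in every comparison, and the 48 h arrays spread over about 1 log2 unit. The Fk difference was −0.17 (−0.78 to 0.43) at 12 h and −0.21 (−0.82 to 0.40) at 48 h, and the time difference was 0.01 in controls and −0.03 with Fk, none past the threshold (limma). Without replicate 3 of Fk at 12 h, the array at 7.97, the 12 h Fk difference was −0.035 and the time difference with Fk −0.17. A dimmer probe set ran from 4.34 to 4.97. Its 48 h Fk and control arrays did not overlap, as for 10.4% of the probe sets tested. The difference was −0.26, which did not pass, against 0.08 at 12 h. Its Fk arrays at 48 h lay below those at 12 h with a difference of −0.21, which did not pass either. These times did not overlap for 36.7% of the probe sets. The last ABCC5 probe set stayed at 2.24 to 4.04 and was not tested.

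**Figure D3:**
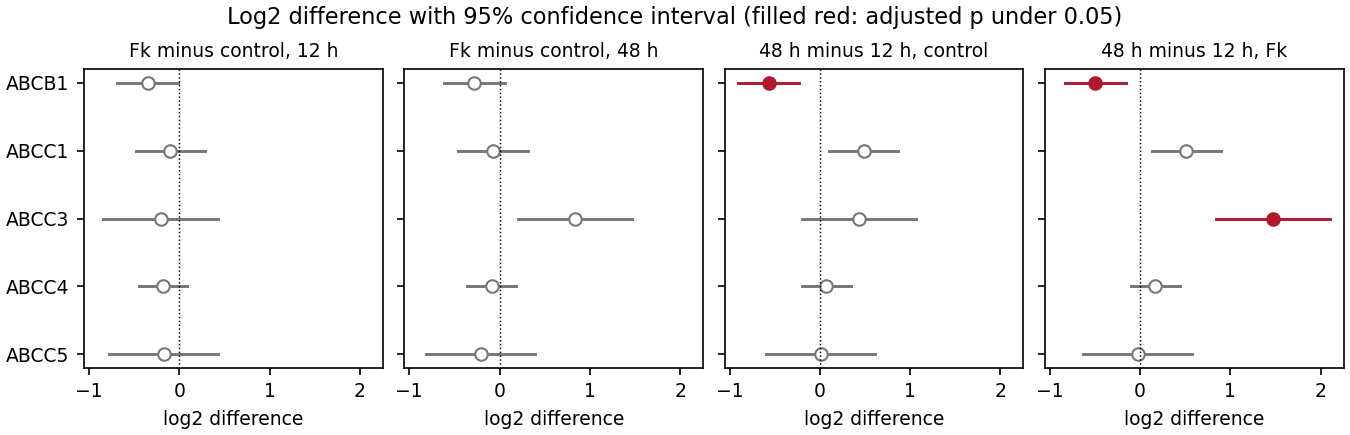
Log2 difference of the 5 tested transporters in 4 comparisons, with 95% confidence intervals from limma; filled red points have an adjusted p under 0.05. No Fk difference passed, ABCB1 passed as lower at 48 h in both treatments, and ABCC3 passed as higher at 48 h in Fk cultures.

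Of the 5 tested transporters, 0 passed for Fk against control at 12 h and 0 at 48 h, where limma called 0% of all genes at either time. At an unadjusted p of 0.05, 1 of the 5 passed at 12 h, against 6.71% of all genes, and 1 at 48 h, against 5.18%. All 5 differences at 12 h were negative, against 46.8% of all genes, with a median of −0.18 against 0.01. This rested largely on replicate 3 of Fk at 12 h. Without that array the differences were −0.27 for ABCB1, 0.057 for ABCC1, 0.013 for ABCC3, −0.082 for ABCC4 and −0.035 for ABCC5. At 48 h 4 of the 5 were negative, against 46.2%, with a median of −0.09 against 0.02. The arrays did not overlap for 1 of 5 at 12 h, against 16.4% of all genes, and for 0 of 5 at 48 h, against 10.2%. The mean Fk effect passed for 0 of the 5 (0.00927% of all genes, 1 gene) and for 1 at the unadjusted threshold (7.94%), and the difference between the effects for 0 (0%) and 1 (3.31%).

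The time comparisons share no arrays with each other, but each shares its arrays with the Fk comparisons. They are not independent, as both use the same estimate of the spread from all 12 arrays. Deviations of same-numbered Fk and control arrays at 48 h also correlated, at 0.80 for replicate 1 and 0.61 for replicate 3, but at −0.03 for replicate 2. In controls 1 of 5 transporters passed, as lower, where 21.5% of all genes passed and 10.9% as lower. In Fk cultures 1 passed as higher and 1 as lower, where 23.2% of all genes passed, 11.5% as higher and 11.7% as lower. The times did not overlap for 2 of 5 transporters in controls, which were also the 2 past the unadjusted threshold (36.4% of all genes), against 50.0% of all genes, and for 3 of 5 in Fk cultures, likewise the 3 past the unadjusted threshold (37.7%), against 38.7%. These counts rest on 5 genes and are not read as differing from the background of all genes.

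**Figure D4:**
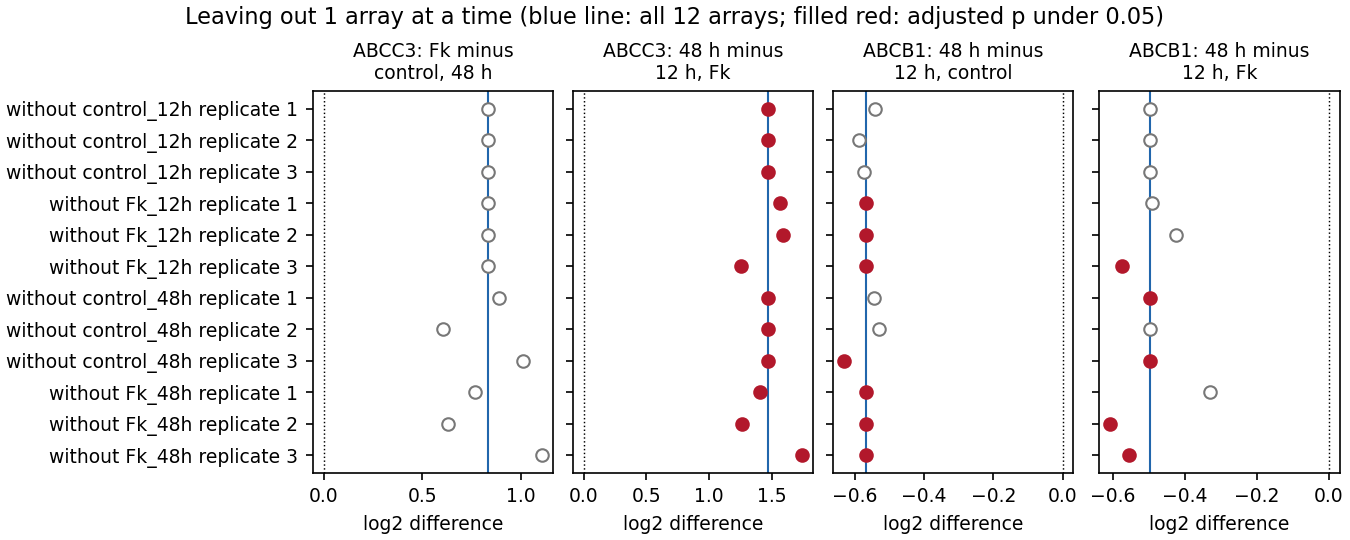
Log2 difference of ABCC3 and ABCB1 in 4 comparisons with each of the 12 arrays left out in turn; the blue line is the value with all arrays, and filled red points have an adjusted p under 0.05. ABCC3 in Fk cultures over time stays past the threshold at 1.25 to 1.75, its 48 h Fk effect ranges from 0.60 to 1.11 and does not pass, and ABCB1 keeps its direction in both time comparisons while its call is lost without some arrays.

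Across the 12 arrays, which share the 4 groups, the tested transporters varied in different ways. Pearson's r was −0.66 between ABCB1 and ABCC1, −0.60 between ABCB1 and ABCC3, 0.64 between ABCC1 and ABCC3 and 0.60 between ABCC1 and ABCC4. The other tested genes with the highest r to ABCB1 were NMT2 (0.948) and CENPM (0.946), both of which, like ABCB1, had their highest group mean in 12 h controls and their lowest with Fk at 48 h. For ABCC1 they were BET1 (0.969) and LZTS3 (0.968), and for ABCC3 PACS2 (0.959) and XPR1 (0.953). XPR1, a phosphate exporter, had group means of 10.59 and 10.60 at 12 h and 11.10 and 11.75 at 48 h, for control and Fk. For ABCC4 they were PTGR2 (0.950) and TNRC6B (0.927), and for ABCC5 STRIP2 (0.961) and ACSL4 (0.876). These genes were picked for their r among all tested genes, so it is given as a description.

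The rest of the drug handling system was read from 5 lists of genes. For Fk against control, 0 of their tested genes passed at 12 h or 48 h (limma). At the unadjusted threshold 0 to 2 genes per list passed at 12 h and 0 to 3 at 48 h, against 6.71% and 5.18% of all genes. Of 34 other ABC transporters, 17 were tested. At 12 h 14 of these 17 had a negative Fk difference, against 46.8% of all genes, with a median of −0.16 against 0.01. At the unadjusted threshold 0 of the 17 passed. The count and median use replicate 3 of Fk at 12 h, the array that stood apart. They were not computed without it and are not read as an effect of Fk. ABCA2, a lipid transporter of endosomes, had the smallest p at 48 h, with a difference of 0.53 ± 0.13 (SE, n = 3 against 3, limma adjusted p = 0.485). Its values lay near the level for testing, at 3.85 to 4.06 in controls. With Fk they were 4.03 to 4.06 at 12 h and 4.25 to 4.68 at 48 h. Over time 1 of the 17 rose and 2 fell in controls, against 10.6% and 10.9% of all genes, and 2 rose and 2 fell with Fk, against 11.5% and 11.7%. ABCB10, a mitochondrial transporter, fell by 1.26 in controls (adjusted p = 0.0191) and by 1.07 with Fk (adjusted p = 0.0333). ABCE1, a ribosome recycling factor, fell by 0.77 in controls (adjusted p = 0.00415), against a difference of −0.35 with Fk (adjusted p = 0.0781). ABCA12, a lipid transporter, rose by 1.63 in controls (adjusted p = 0.0470), against 1.52 with Fk (adjusted p = 0.0560). With Fk, ABCF1 fell by 0.39 (adjusted p = 0.0210), against −0.31 in controls (adjusted p = 0.0528), and ABCA2 rose by 0.46 (adjusted p = 0.0256), against −0.00061 in controls (adjusted p = 0.998).

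Uptake carriers for organic ions and nucleosides were mostly below the level for testing, with 7 of 22 tested. In controls 2 of the 7 fell over time, against 10.9% of all genes, and 0 rose, against 10.6%. With Fk 0 passed, against 23.2% of all genes, and 2 passed the unadjusted threshold, against 37.7%. SLC29A1, an equilibrative nucleoside carrier, fell by 1.11 in controls (limma, adjusted p = 0.0157), against −0.44 with Fk (adjusted p = 0.246). SLC22A5, the carnitine carrier, fell by 0.98 in controls (adjusted p = 0.0314), against −0.82 with Fk (adjusted p = 0.0562). SLCO2A1, a prostaglandin carrier, had a time difference of −0.97 in controls (adjusted p = 0.112) and an Fk difference of 1.06 at 48 h (adjusted p = 0.897).

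Of 27 factors that regulate transporter genes, 20 were tested. In controls 3 rose and 2 fell over time, against 10.6% and 10.9% of all genes, and with Fk 4 rose and 3 fell, against 11.5% and 11.7%. EPAS1, a hypoxia factor, rose by 1.60 in controls (limma, adjusted p = 0.000457) and by 1.71 with Fk (adjusted p = 0.000273). NFE2L2, or NRF2, the factor of the antioxidant response, rose by 0.89 in controls (adjusted p = 0.00355), against 0.43 with Fk (adjusted p = 0.0610). KEAP1, which marks NRF2 for degradation, fell by 0.58 in controls (adjusted p = 0.0148) and by 0.60 with Fk (adjusted p = 0.0119). PPARG, a nuclear receptor for fatty acids, rose by 0.55 in controls (adjusted p = 0.0357) and by 1.20 with Fk (adjusted p = 0.00138). NFYB, a subunit of the factor that binds CCAAT, fell by 0.69 in controls (adjusted p = 0.0303) and by 0.86 with Fk (adjusted p = 0.0118). At 12 h the Fk difference was 0.53 for NFE2L2 (adjusted p = 0.654) and 1.11 for VDR, the vitamin D receptor (adjusted p = 0.657), and both passed the unadjusted threshold.

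Of 30 conjugating enzymes and genes of glutathione supply, which make substrates for the ABCC pumps, 18 were tested. Over time 2 rose and 2 fell in controls, against 10.6% and 10.9% of all genes, and 1 rose and 4 fell with Fk, against 11.5% and 11.7%. SULT1C2, a sulfotransferase, rose by 2.73 in controls (limma, adjusted p = 0.00119) and by 1.75 with Fk (adjusted p = 0.00685). MGST2, a microsomal glutathione transferase, fell by 0.89 in controls (adjusted p = 0.00817) and by 1.16 with Fk (adjusted p = 0.00257). GCLM, the modifier subunit of the enzyme that starts glutathione synthesis, fell by 0.61 in controls (adjusted p = 0.0417) and by 0.85 with Fk (adjusted p = 0.0104). GCLC, the catalytic subunit of that enzyme, went the other way. It rose by 0.84 in controls (adjusted p = 0.0488), against 0.68 with Fk (adjusted p = 0.0923). Its Fk difference at 12 h was 0.55 (adjusted p = 0.759).

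Of 17 scaffold and trafficking partners, which hold transporters at the membrane or carry them to it, 16 were tested. Over time 1 rose and 4 fell in controls, against 10.6% and 10.9% of all genes, and 3 rose and 4 fell with Fk, against 11.5% and 11.7%. EZR, or ezrin, which links apical membrane proteins to actin, fell by 0.57 in controls (limma, adjusted p = 0.00821) and by 0.54 with Fk (adjusted p = 0.0103). VAMP8, a vesicle fusion protein, fell by 0.73 in controls (adjusted p = 0.0107) and by 0.97 with Fk (adjusted p = 0.00307). NHERF1, a PDZ scaffold of apical transporters, fell by 0.41 in controls (adjusted p = 0.0331) and by 0.96 with Fk (adjusted p = 0.000888). RAB5A, a GTPase of early endosomes, rose by 1.08 in controls (adjusted p = 0.0113) and by 1.03 with Fk (adjusted p = 0.0126).

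**Figure D5:**
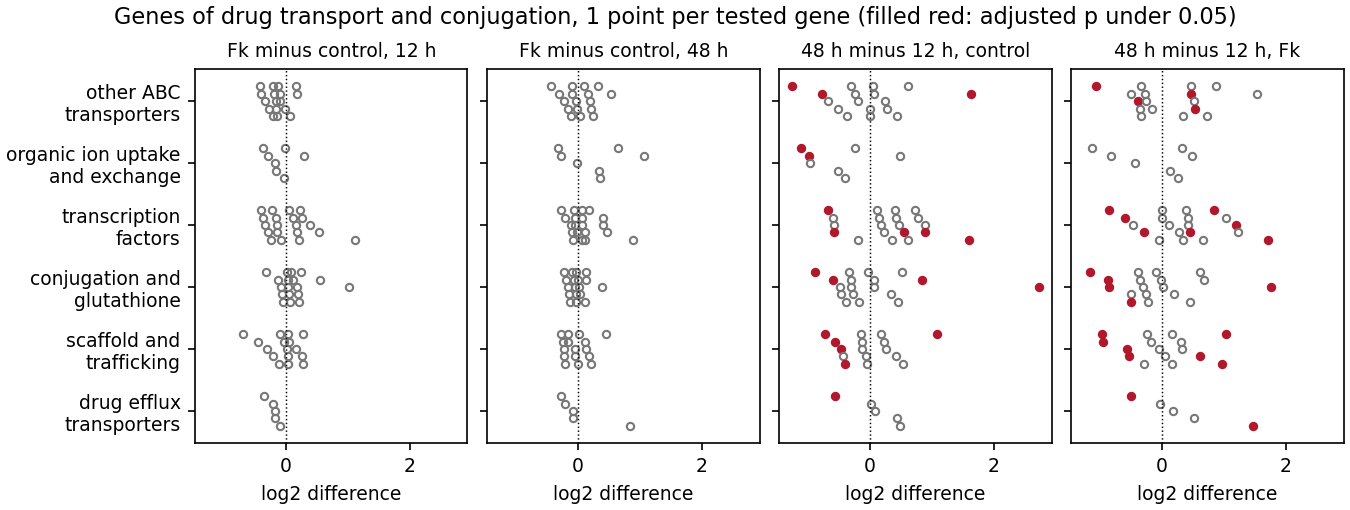
Log2 differences of all tested genes of the 5 lists and of the 5 tested efflux transporters in 4 comparisons, 1 point per gene; filled red points have an adjusted p under 0.05. No gene of any list passed for Fk against control, while the time comparisons hold rises and falls in most lists.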

How the data were processed

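RNA of 12 HK-2 cultures was measured on Affymetrix arrays. The authors deposited 1 log2 value per probe set and array, made with GCRMA per the submitters' processing notes; GCRMA corrects background from probe sequence, normalizes quantiles and summarises probes. Its version, and whether these arrays were processed together with others, are not given in the sources used here. Values were used as deposited. Of 54675 probe sets, 41097 carried 1 symbol in the platform annotation, 1801 several and 11777 none. The number of arrays limits the precision.

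Tests used limma 3.58.1 in R 4.3.3: a mean per group over all 12 arrays, eBayes with 2.44 prior beside 8 residual degrees of freedom, two-sided p-values, Benjamini-Hochberg adjustment over all 10784 tested genes and a threshold of 0.05. A separate fit covered single probe sets. The test was run on simulated data with known changes, in which every array had independent noise of the same spread. That check does not cover an array that stands apart or replicates that vary together. Figures were drawn with matplotlib 3.10.9 in Python 3.11.15.

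Named genes were the 7 transporters, the 2 tested genes most correlated with each, and up to 3 genes with the smallest p from each list and comparison. The transporters and lists were chosen with earlier results of these data known. Alternatives numbered 27 planned and 1 added after the data were seen, of which 12 left out 1 array.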

Additional observations from a re-analysis of the deposited data

How the results depend on the processing

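Of the 7 transporters, ABCC3 over time in Fk cultures kept its direction and its call under the 25 alternatives that could test it. Under the looser thresholds among them, an adjusted p of 0.1 and an unadjusted p of 0.05, a call could not be lost. For Fk against control, the count of transporters past the threshold went from 0 to 1 with array weights at 48 h and for the mean effect, and to 1 with an unadjusted p of 0.05 in all 4 Fk comparisons. Over time in Fk cultures the count was 2 and became 1 with no filter on level, with the mean of probe sets, without _s_at and _x_at probe sets, where ABCC3 was no longer tested, and with only the groups compared. It became 3, with ABCC1 added, with array weights, with an adjusted p of 0.1, with an unadjusted p of 0.05 and with a replicate block across times, and 1 to 3 when 1 array was left out. Over time in controls the count was 1. It became 0 with the mean of probe sets, 2 with array weights, with only the groups compared, with an adjusted p of 0.1 and with an unadjusted p of 0.05, and 0 to 2 when 1 array was left out.

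The replicate numbers did not pair the arrays throughout. Deviations of same-numbered Fk and control arrays correlated at 0.04, 0.27 and 0.16 at 12 h. At 48 h they correlated at 0.80 for replicate 1 and 0.61 for replicate 3, but at −0.03 for replicate 2. The main tests used no pairing. With the replicate number as a block within each time, 0 transporters passed for Fk. With a replicate block across times, an alternative chosen after seeing the data, 2 passed over time in controls. With the block and without replicate 3 of Fk at 12 h together, the difference between the Fk effects turned to −0.0014 for ABCB1, −0.13 for ABCC1 and −0.0027 for ABCC4, and the 12 h effect on ABCC1 to 0.054.

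None of the values that reversed had passed the threshold, and the cause was not tested. With the mean of probe sets, ABCB1 turned to −0.089 for the difference between the Fk effects. ABCC1 turned to 0.069 at 12 h, 0.024 at 48 h, −0.045 for the difference and 0.047 for the mean effect, ABCC4 to 0.020 at 48 h, and ABCC5 to 0.057 at 12 h and −0.046 over time in controls. Without _s_at and _x_at probe sets ABCC5 was 0.077 at 12 h. Quantile normalization again gave −0.016 for the ABCC1 difference and −0.024 for ABCC5 over time in controls, where subtracting array medians gave −0.017. Array weights gave 0.055 for ABCC1 at 12 h and −0.28 for its difference. Leaving out 1 array, the difference between the Fk effects ran from −0.039 to 0.24 for ABCB1, −0.13 to 0.15 for ABCC1, −0.0055 to 0.18 for ABCC4 and −0.30 to 0.20 for ABCC5. ABCC1 ran from −0.23 to 0.057 at 12 h and −0.21 to 0.0058 at 48 h, ABCC3 from −0.33 to 0.013 at 12 h, ABCC4 from −0.013 to 0.12 over time in controls, and ABCC5 from −0.47 to 0.028 at 48 h, −0.29 to 0.21 over time with Fk and −0.12 to 0.23 over time in controls.

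Over all genes the counts of 0 for Fk at 12 h, 0 at 48 h, 1 for the mean effect and 0 for the difference ran to at most 724, 559, 856 and 357, in each case with the unadjusted p, and with array weights to 156, 94 and 527 for the first 3. The count of 2314 over time in controls ran from 1060 to 4920, and that of 2500 with Fk from 831 to 5345. ABCC2 and ABCG2 stayed under 4 on every array, so signal over background limits what these arrays show of them.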
